A study of Homo sapiens with 24 samples.

Results

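The comparison described here is that of chromatin accessibility in HEK293 cells overexpressing LMNA, which encodes lamin A/C, with the same cells overexpressing enhanced green fluorescent protein (eGFP, called GFP below), the control. It was chosen by the count columns of the 3 LMNA and the 3 GFP libraries, 6 of the 24 libraries of the study, with the other 6 accessibility libraries (LMNB1 and LMNB2, the B-type lamins, 3 each) entering the same model fit. HEK293 is an established human embryonic kidney line, its genotype is labelled wild type in all groups, and every accessibility library came from 100000 cells and carries batch number 2. The vector, the dose and the time of overexpression, and whether the replicates were separate cultures, are not given in the sources used here, so p-values measure the spread between these libraries. RNA polymerase III (Pol III) and genome organisation are named in the title of the study. The comparison therefore asks whether lamin A overexpression goes with a different accessibility at Pol III genes and other non-coding genes.

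Lamin A/C is a filament protein of the nuclear lamina, the meshwork under the inner nuclear membrane, and is also found in the nucleoplasm. Gene-poor, mostly silent stretches of chromosomes tend to lie against the lamina. Pol III transcribes transfer RNAs (tRNAs), 5S ribosomal RNA and a set of short structural RNAs, whose genes are often strongly accessible. ATAC-seq counts the places where the Tn5 transposase can enter DNA, so it reads open chromatin and equally any other DNA, such as mitochondrial DNA or introduced plasmid, that carries no nucleosomes.

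The values are raw counts per window. A feature window covers a non-coding interval, as used for the small RNA counts of the study, plus 125 bp on each side. Such an interval can itself reach past the gene. Of 26741 intervals with a RefSeq gene symbol, 5103 ended exactly 25 bp beyond that gene. Flank windows of 500, 5000 and 50000 bp begin 350 bp outside the feature window. In units of 1e+06 counts, feature windows summed to between 156 and 212 in the GFP libraries and to between 189 and 279 in the LMNA libraries, and no pair of replicates was alike within counting noise. Levels are CPM, counts scaled to 1e+06 per library, after edgeR's TMM scaling, fold changes are LMNA over GFP on the log2 scale with a prior count of 2, and tests are the quasi-likelihood test of edgeR, adjusted by Benjamini-Hochberg over all windows of a kind. A window is called at an adjusted p under 0.05. The share of feature-window counts on mitochondrial DNA was 39.4%, 44.1% and 39.8% in LMNA replicates 1, 2 and 3. It was 39.9%, 47.5% and 47.0% in those of GFP (41.1% ± 2.62 against 44.8% ± 4.24, SD, n = 3 each). The ranges overlapped, with p = 0.2 in a two-sided exact permutation test whose smallest possible p is 0.1. Windows of tissue-restricted microRNAs of blood, muscle, pluripotent cells and neurons lay at or under 0.359 CPM in all 6 libraries. Those of the broadly transcribed SNHG1, GAS5, MIR17HG, MALAT1 and RN7SK lay between 4.66 and 16.6 CPM. CPM is not scaled to window length, and the MALAT1 window, for example, spans 13119 bp. The ratio of window to flank in GFP overlapped between these lists. It ran from 0.598 (MIR302A) to 3.45 (MIR124-1) for the microRNAs and from 1.73 (SNHG1) to 110 (RN7SK) for the others. No defining marker of HEK293 was among the windows fixed for this check.

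The overexpressed gene itself was examined first. LMNA lies on the plus strand of chromosome 1 at 156082573 to 156140081 (RefSeq, GRCh38.p14), and 6 feature windows overlap it. RefSeq lists 3 starts for the gene, at 156082573, 156082881 and 156106716, and the last lies inside the lnc-SEMA4A-1 window described next, left of where its counts rose. The sequence upstream of the first start is shown because the windows over it did not share in that gain. It is chr1:156082323-156082572 on the plus strand, 250 bases, with matches to the GC box (GGGCGG, or CCGCCC on the other strand) in capitals.
LMNA upstream of the first start: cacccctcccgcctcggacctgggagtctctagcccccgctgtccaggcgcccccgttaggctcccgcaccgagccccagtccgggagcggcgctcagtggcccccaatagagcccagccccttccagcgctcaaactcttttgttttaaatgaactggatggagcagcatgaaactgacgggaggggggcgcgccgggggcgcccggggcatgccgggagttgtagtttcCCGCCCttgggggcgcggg
The stretch is 68.8% G and C, holds 21 CG dinucleotides and 1 GC box match and has no TATAAA on the strand shown. At least 1 GC box match was present in the 250 upstream bases of 42.6% of 35116 RefSeq promoters.

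The 500 bp window that spans this start (156082205 to 156082704) held 244, 285 and 295 counts in the GFP libraries and 284, 251 and 355 in the LMNA libraries. The groups overlapped, with a log2 fold change of -0.19 (adjusted p = 0.961). Of the 6 feature windows, 5 had log2 fold changes between -0.04 and 0.31 and were not called. The sixth, lnc-SEMA4A-1, a long non-coding RNA (lncRNA) annotated inside LMNA at 156106508 to 156114988, held 2087, 1932 and 1718 counts in GFP and 869602, 937136 and 1063696 in LMNA. The LMNA libraries stood far above every other library, those of LMNB1 and LMNB2 holding 1573 to 4911 counts. The window rose from 11.1 ± 2.16 to 4475 ± 802 CPM (SD, n = 3 each), which is 402-fold and 8.65 ± 0.42 (SE) on the log2 scale, with an adjusted p of 0.0038. It was the only feature window of 163786 tested that was called (0.000611% called), while 8501 (5.19%) had an unadjusted p under 0.05. Its difference from the mean of the LMNB1 and LMNB2 libraries was 8.94 (adjusted p = 8.1e-05), a test that called 198 feature windows (0.121%). Since the window was already called with the same LMNA libraries, a positive difference was favoured. Its call was lost, at nearly the same fold change, in a fit of only the 6 libraries (adjusted p = 0.095), without GFP replicate 1 (0.077) and without GFP replicate 2 (0.118). Over all the alternatives its adjusted p ran from 1.1e-185 with DESeq2 to 0.118.

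The flanks placed the gain along the gene. Of 15 tested flank windows of 50000 bp over LMNA, 8 were called, with log2 fold changes of 8.42 to 9.18, and the other 7 lay between -0.01 and 0.02. The 50000 bp windows gave 24 calls among 351053 (0.00684%), all higher. None of the 10 windows of 500 bp or of the 10 of 5000 bp over LMNA was called, although 3 of the 500 bp windows held 24 counts or fewer in every GFP and LMNA library. Of these 20 windows 1, of 500 bp, had an unadjusted p under 0.05 (lower, with 6 to 22 counts), where 5.28% of all 500 bp and 5.64% of all 5000 bp windows did. The window from 156102429 to 156152428 held 19876, 18413 and 15162 counts in GFP and 11040825, 12222189 and 14817238 in LMNA. Windows over the gene took 9.55%, 11.5% and 8.95% of all counts in 50000 bp windows of the LMNA libraries against 0.022% to 0.031% of those of GFP. Since these windows overlap and can count a read repeatedly, the values are shares of summed window counts and not of reads.

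Windows that share an edge were subtracted from each other to divide the gene into stretches, the values of which are then net of the small counts at the other edge. The left part was flat, in that the windows of 5000 bp that begin -0.368, 11.7 and 19.9 kb from the gene start had LMNA to GFP ratios of 0.974, 0.943 and 1.04. The 50000 bp window that ends 28.8 kb from the start had a ratio of 1.02, which leaves the gain of the lnc-SEMA4A-1 window between 28.8 and 32.4 kb. The next 350 bp, from 32.4 to 32.8 kb, held by difference 1849018, 2029596 and 2411825 counts in the LMNA libraries and 1847, 1594 and 1093 in GFP. The 5000 bp that follow were flat at 634, 536 and 882 counts against 591, 584 and 545 (ratio 0.935). Counts were high again between 37.8 and 51.6 kb, at 1145424 to 1477617 in LMNA and 5031 to 5409 in GFP. The last stretch, from 51.6 to 61.7 kb, which takes in the 3' end of the gene, held 7175531, 7985966 and 9862311 counts in LMNA and 9385, 8611 and 6291 in GFP. It carried on average 65.6% of the counts gained, against 16.5% for the 350 bp stretch, 10.2% for the stretch before it and 7.58% for the lnc-SEMA4A-1 window. Past 61.7 kb, the next 8117 bp held 256, 108 and 239 net counts in LMNA and 74, 84 and 35 in GFP. The plot of counts along LMNA shows these blocks. In a design that introduces LMNA sequence, accessibility of the chromosomal gene and the number of introduced DNA copies cannot be told apart at these windows.

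**Figure D1:**
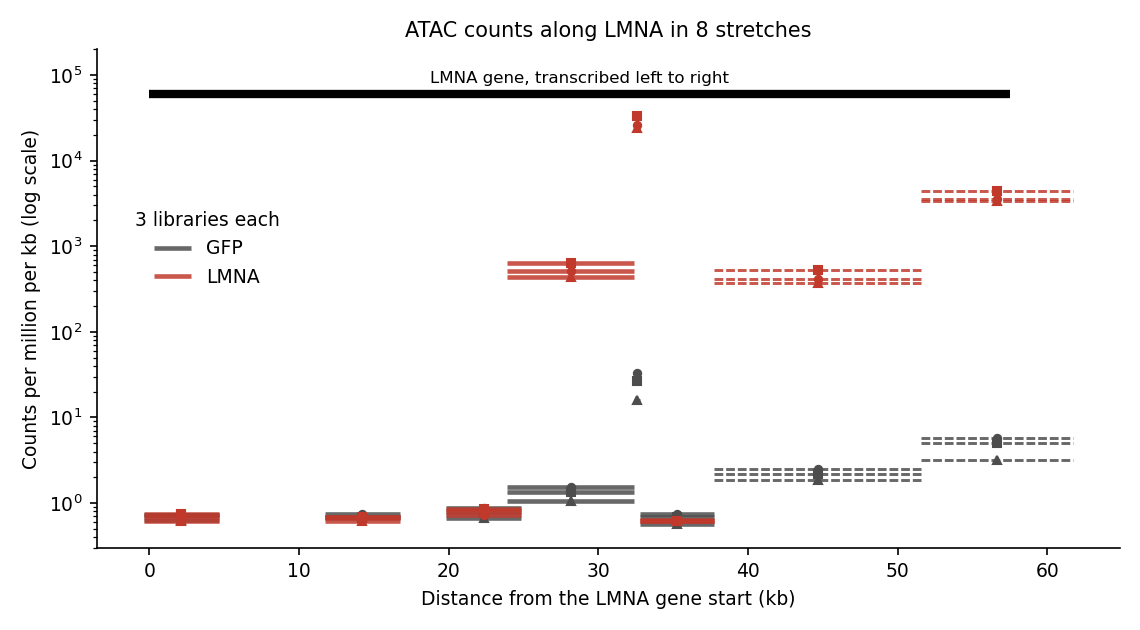
CPM per kb (log axis) in 8 stretches of LMNA against distance from the gene start in kb, for 3 GFP (grey) and 3 LMNA (red) libraries; solid lines are deposited windows, dashed lines and the 350 bp stretch near 32.4 kb are differences of windows, and marker shape gives the replicate. LMNA libraries lie with GFP in 4 stretches (ratios 0.935 to 1.04) and far above it in the other 4.

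The windows relative to their own flanks gave the reverse sign at this locus. With the summed counts of both 50000 bp flanks as an offset, 7 of 163734 feature windows were called (0.00428%), all lower, with log2 fold changes of -7.73 to -8.91. All 7 lie inside or next to LMNA, none was called on its own counts, and the 50000 bp flanks of each reach into the gained stretch. The lnc-SEMA4A-1 window, which lies inside the gain, was at -0.20 ± 0.08 on this scale. No feature window elsewhere in the genome was called relative to its flanks. With 5000 bp flanks as the offset, 1 window was called, higher.

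The other lamin genes were read in the same libraries. LMNB1, on chromosome 5, encodes lamin B1, and the 50000 bp window of LMNB1-DT over it (126777170 to 126827169) held 4128, 2581 and 4714 counts in GFP and 6195, 15956 and 13963 in LMNA. LMNA replicates 2 and 3 stood above the other LMNA and the GFP libraries, and the difference of 1.37 ± 0.30 was not called (adjusted p = 0.19). The LMNB1 libraries held 5420039 to 8608951 counts there and the LMNB2 libraries 8477 to 14779. At LMNB2 on chromosome 19, which encodes lamin B2, the MIR7108 window at 2434764 to 2435083 held 830, 546 and 430 counts in GFP and 596, 22 and 541 in LMNA. LMNA replicate 2 stood apart from both groups, and the adjusted p was 0.992. The LMNB2 libraries held 1649723 to 1956256 counts and LMNB1 replicate 3 held 4719, so counts at this window also differed among libraries of cells labelled with another protein. The source of those counts was not tested. None of the 16 feature windows over LMNB1 and LMNB2 was called, with log2 fold changes of -1.05 to 1.16.

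Outside the lamin genes a single short site was called, on chromosome 20 just past the 3' end of SNAP25, which encodes a membrane fusion protein of synaptic vesicle release. The 500 bp flank window of lnc-SNAP25-4 at 10308630 to 10309129 begins 1212 bp beyond SNAP25 and held 6, 4 and 16 counts in GFP and 73, 102 and 274 in LMNA. Every LMNA library lay above every GFP, LMNB1 and LMNB2 library, the last 2 groups holding 0 to 16 counts, and 9.87% of all 500 bp windows had no overlap between LMNA and GFP. The window rose by 3.52 ± 0.43 on the log2 scale (adjusted p = 9.6e-05), the only call among 229879 windows of 500 bp (0.000435%). The difference from the LMNB1 and LMNB2 libraries was 4.11 (adjusted p = 7.1e-10). A positive difference was favoured here, since the window was picked by its call against GFP with the same LMNA libraries.

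Both calls among 350327 windows of 5000 bp (0.000571%) cover the same site. The window of NONHSAG031254.2 at 10307918 to 10312917 held 43, 62 and 69 counts in GFP and 119, 169 and 354 in LMNA, an increase of 1.49 ± 0.19 (adjusted p = 2.4e-08). That of lnc-SNAP25-4 at 10304130 to 10309129 held 159, 174 and 162 against 253, 256 and 530, an increase of 0.70 ± 0.13 (adjusted p = 0.0189). The groups did not overlap in either window, as in 9.6% of all windows of 5000 bp, and LMNA replicate 3 was the highest in both. The feature window of lnc-SNAP25-4 next to the site (10309480 to 10312252) held 34, 44 and 34 counts in GFP and 18, 49 and 62 in LMNA, and overlapped. The 500 bp window of NONHSAG031254.2 just to the left (10307918 to 10308417) held 2 to 6 counts in GFP and 2 to 14 in LMNA. Both neighbours of the called window thus stayed low. The call of the 500 bp window was lost with DESeq2 (log2 fold change 3.74, adjusted p = 0.4) and without GFP replicate 1 (adjusted p = 0.124). That of the 5000 bp window of NONHSAG031254.2 was kept under each alternative that tested it. That of lnc-SNAP25-4 was lost with DESeq2 (adjusted p = 0.478) and without GFP replicate 2 or 3 or LMNA replicate 2 or 3 (adjusted p = 0.0663 to 0.571).

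The remaining 16 called windows of 50000 bp lie in 2 neighbourhoods, each with 1 coding gene start within 500 kb. On chromosome 6, 7 overlapping windows between 164777232 and 164827339 share bases with the lncRNA gene MEAT6. They lie 452325 to 452433 bp from the nearest coding gene, C6orf118. The window of lnc-QKI-4 and AL450345.1 there held 339, 423 and 544 counts in GFP and 697, 649 and 996 in LMNA. After scaling these are 0.661, 0.761 and 0.856 CPM against 1.06, 1.13 and 1.06 CPM, so that the groups did not overlap (9.87% of all 50000 bp windows), and the window rose by 0.51 ± 0.09 (adjusted p = 0.0432).

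On chromosome 12, 9 overlapping windows between 128036032 and 128086497 are flanks of LINC02369 and ENSG00000256551.2. They share bases with the RefSeq gene LOC105370071 and lie 180673 to 181139 bp from TMEM132C, a gene of a membrane protein. The LINC02369 window at 128036473 held 285, 385 and 452 counts in GFP and 611, 549 and 943 in LMNA, or 0.556, 0.693 and 0.711 against 0.933, 0.956 and 1.01 CPM. Again the groups did not overlap, and the increase was 0.56 ± 0.10 (adjusted p = 0.0432). Against LMNB1 and LMNB2 the LMNA libraries were higher by 0.36 at the chromosome 6 window (adjusted p = 0.0283) and by 0.48 at the chromosome 12 window (adjusted p = 0.00819). These windows were picked by their calls against GFP with the same LMNA libraries, so a positive difference was favoured. All 16 calls were lost when GFP replicate 1 or 2, any LMNA replicate, LMNB1 replicate 2 or any LMNB2 replicate was left out.

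**Figure D2:**
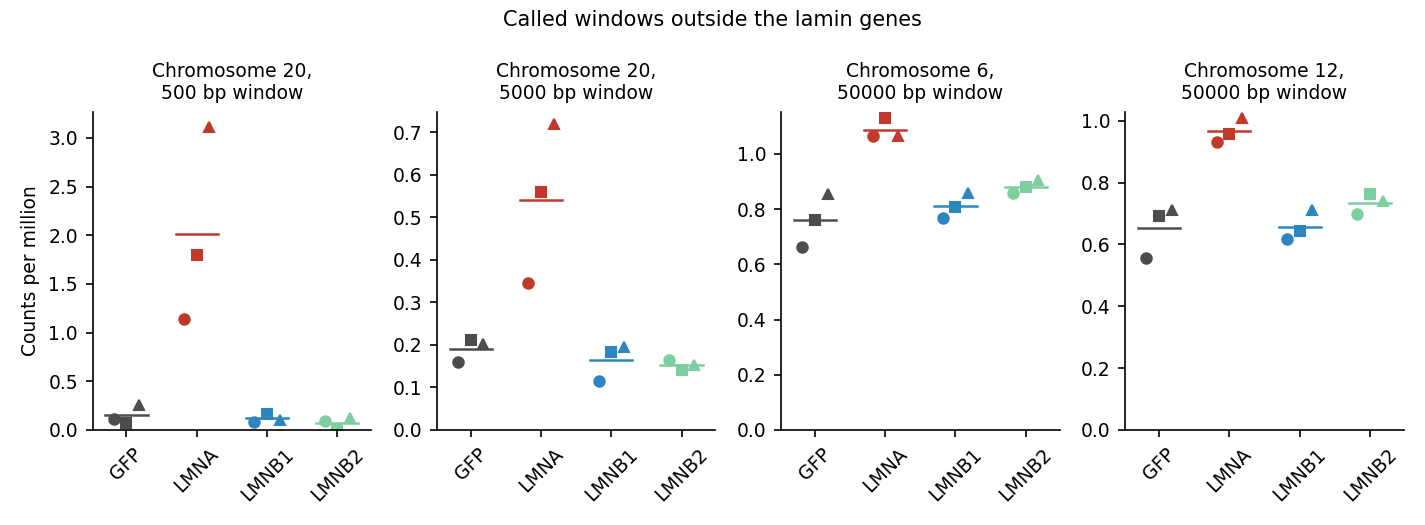
CPM at the called windows outside the lamin genes, for 3 libraries of each of the 4 groups (marker shape gives the replicate, horizontal lines are group means). The LMNA libraries (red) lie above all others in the 4 panels, by most at the 500 bp site on chromosome 20 (1.14 to 3.11 CPM against 0 to 0.261).

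At Pol III genes no window was called. Of 579 windows over Pol III genes, 562 passed the count filter. edgeR's test called 0 of them, and 20 (3.56%) had an unadjusted p under 0.05, 18 higher and 2 lower, against 5.19% of all windows. DESeq2 also called 0. The median log2 fold change was 0.05 against -0.001 for all feature windows, and 374 of 562 (66.5%) were above 0 against 49.6% of all. All LMNA libraries lay above all GFP libraries in 23 of the 562 windows and below them in 7. Of all feature windows 4.81% were so above, 4.74% below and 9.55% either. The median level over the Pol III windows, relative to each window's GFP mean, was 0.10, 0.06 and -0.15 in GFP replicates 1 to 3 and 0.09, 0.14 and -0.07 in LMNA. GFP replicate 3 was the lowest and LMNA replicate 2 the highest, and the groups overlapped. Without GFP replicate 3 the median fold change was -0.02, and with scaling by total counts it was 0.14, where that of all feature windows moved to 0.09.

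Precision was enough to bound most of these genes. The 95% interval of the fold change lay wholly within 1.5-fold in either direction for 78.6% of the Pol III windows (61.6% of all windows) and within 2-fold for 86.5% (79.7% of all). The intervals come from the model's standard errors for each window and are not adjusted for their number.

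Among tRNA genes, which carry promoters inside the gene, 482 of 499 windows were tested. Their median was 0.04, and 314 of them were higher. Of 24 isotype groups 21 had a median above 0, from -0.03 for isoleucine to 0.37 for selenocysteine, the latter over 3 windows of low count, and in all 24 the library levels of the groups overlapped. The smallest unadjusted p of a tRNA window of more than 100 counts in every LMNA and GFP library was that of tRNA-Phe-GAA-3-1, named after its value was seen. It held 183, 239 and 246 counts in GFP and 323, 324 and 401 in LMNA, a difference of 0.34 ± 0.12 with an adjusted p of 0.915. Near-identical tRNA, 5S and SNAR copies may share reads, so their windows are not independent.

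The other multicopy Pol III families lay close to 0 as well. The 17 tested 5S rRNA windows had fold changes from -0.08 to 0.16 with a median of 0.06. The 38 of SNAR, a primate-specific small RNA family, had a median of 0.09, from -0.88 to 0.60. The 9 U6 windows, whose RNA is the catalytic centre of the spliceosome, had a median of 0.09. The 2 of them with an unadjusted p under 0.05 carry the joint name RNU6-9;RNU6-1 and held 276, 237 and 210 counts against 344, 319 and 454 on chromosome 15 and 1016, 1038 and 1028 against 1294, 1239 and 1873 on chromosome 19 (adjusted p = 0.957 for both). The window named RNU6-1 alone with the most counts lies over RNU6-5P in RefSeq and held 8 to 27 counts, so its value (-0.37 ± 0.46) cannot be assigned to RNU6-1.

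Single Pol III genes of the fixed list held most of their values near 0. RN7SK, whose RNA holds the elongation factor P-TEFb inactive, had 9.30 ± 1.14 CPM in GFP and 9.25 ± 0.889 CPM in LMNA (SD, n = 3 each), from 1677, 1514 and 1631 counts against 1974, 1695 and 2340. RMRP, the RNA of RNase MRP, had 8.11 ± 0.762 and 8.61 ± 0.905 CPM. RPPH1, the RNA of RNase P, had 11.2 ± 1.32 and 11.4 ± 0.384 CPM. The groups overlapped in all 3, and the fold changes were -0.01 ± 0.09, 0.08 ± 0.09 and 0.02 ± 0.08. Their 95% intervals together reached from -0.19 to 0.27. RN7SL1, RN7SL2 and RN7SL3, which encode the RNA of the signal recognition particle, gave -0.01 ± 0.09, 0.03 ± 0.09 and 0.10 ± 0.11. The vault RNA genes VTRNA1-1, VTRNA1-2, VTRNA1-3 and VTRNA2-1 gave 0.05, 0.01, 0.004 and 0.08, with standard errors of 0.08 to 0.10. RNU6ATAC, of the minor spliceosome, gave -0.03 ± 0.11. BCYRN1, a brain-enriched dendritic RNA, gave -0.14 ± 0.13.

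The Y RNA genes, whose RNAs bind the Ro protein, had fewer counts and wider spreads. RNY4 held 50, 89 and 78 counts in GFP and 49, 59 and 92 in LMNA (-0.45 ± 0.24, adjusted p = 0.964). RNY3 gave -0.25 ± 0.14, RNY5 gave -0.11 ± 0.16 and RNY1 gave 0.24 ± 0.15. The groups overlapped in all 4, and the interval for RNY4 reached from -0.95 to 0.04.

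**Figure D3:**
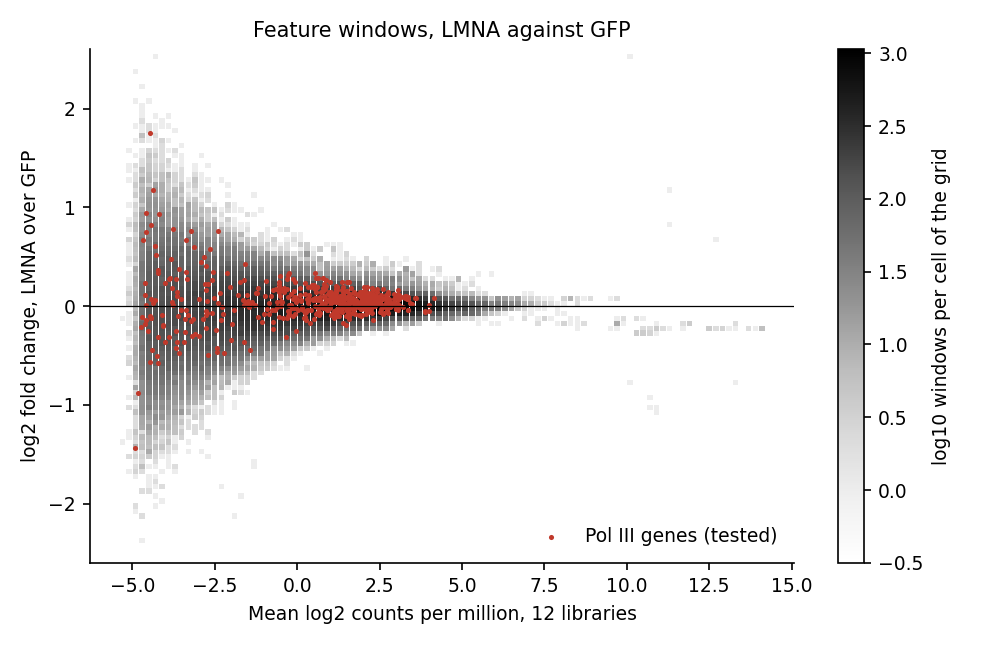
log2 fold change of LMNA over GFP against mean log2 CPM for 163786 feature windows (grey grid, darker for more windows) and the 562 tested Pol III genes (red); values beyond 2.5 are drawn at 2.5, where the called lnc-SEMA4A-1 window (8.65) sits. The red points follow the grey cloud, and the spread narrows with count.

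Accessibility of Pol III genes against their surroundings differed by less than the spread between replicates. The median Pol III gene held 9.77 ± 0.361 times as many counts per kb as its 50000 bp flanks in GFP and 9.70 ± 0.304 times in LMNA (SD, n = 3). The ratio for 7SL genes was 34.8 ± 3.21 and 34.4 ± 2.14, for vault RNA genes 42.1 ± 1.72 and 43.1 ± 2.44, and for tRNA genes 9.75 ± 0.479 and 9.77 ± 0.423. Dispersed copies of Pol III genes lacked this enrichment: copies of U6 had ratios of 0.413 ± 0.0843 and 0.371 ± 0.0212 and those of Y RNAs 0.404 ± 0.0422 and 0.384 ± 0.00876. Taken against their flanks in the model, 0 of the 562 Pol III windows were called by edgeR. An unadjusted p under 0.05 was found for 20 (3.56%), against 7139 of all 163734 windows. The median was 0.03 against -0.001 for all, and 351 (62.5%) were higher against 49.7% of all. The 500 bp flanks of these genes had a median of 0.01, the 5000 bp flanks 0.01 and the 50000 bp flanks -0.001.

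In other classes of small RNA genes fold changes were also centred near 0. The 29 windows of small nuclear RNA genes made by RNA polymerase II had a median of 0.06, the 202 tested C/D box snoRNA windows 0.02, the 151 H/ACA box snoRNA windows -0.02 and the 23 scaRNA windows 0.02. None of these was called by edgeR. An unadjusted p under 0.05 was found for 0 of 29, 12 of 202, 6 of 151 and 3 of 23, where 5.19% of all feature windows had one. DESeq2 called 0 in each, and 0 among microRNA and mitochondrial windows. The 1876 tested microRNA windows had a median fold change of 0.01, with 0 called by edgeR and 82 (4.37%) at an unadjusted p under 0.05. Their median levels were 0.03, -0.01 and 0.04 in GFP and 0.04, 0.07 and 0.04 in LMNA, which did not overlap, though the nearest libraries are equal after rounding. All 46 mitochondrial windows were lower, by a median of 0.23 on the log2 scale, with 0 called or under an unadjusted p of 0.05. Without GFP replicate 1, 45 of the 46 had an unadjusted p under 0.05, and with total counts 6 did, with 0 called in either. The 46 windows share 1 circular genome and the library levels overlapped (-0.29, 0.18 and 0.11 in GFP, -0.33, -0.01 and -0.32 in LMNA).

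**Figure D4:**
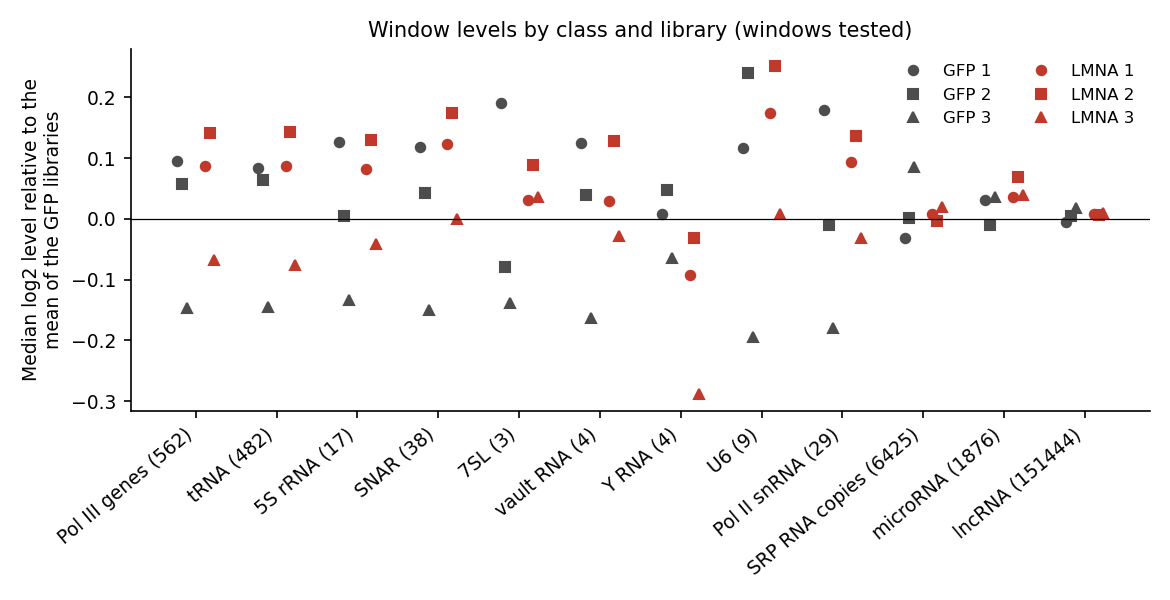
Median log2 level of the tested windows of each class (number in brackets) relative to each window's mean over the GFP libraries, for every GFP (grey) and LMNA (red) library. GFP replicate 3 is the lowest library for the Pol III genes (-0.15), and the groups overlap there and in each of the 8 Pol III and Pol II classes drawn; only in microRNA windows do the 3 LMNA libraries all lie above GFP.

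None of the 12 listed lncRNA windows was called by edgeR, and 2 of them, SNHG1 and LMNB1-DT, had an unadjusted p under 0.05 (5.19% of all feature windows). DESeq2 called 0 of them. MALAT1, an abundant nuclear RNA, had 15.6 ± 1.47 CPM in GFP and 15.8 ± 0.458 in LMNA (0.02 ± 0.06). NEAT1, the scaffold of paraspeckles, gave 0.02 ± 0.07, the imprinted H19, MEG3 and KCNQ1OT1 gave -0.14 ± 0.12, 0.06 ± 0.10 and -0.06 ± 0.06, and HOTAIR, HOTTIP and HOXA-AS2, of the HOX clusters, gave 0.002 ± 0.08, -0.03 ± 0.08 and 0.10 ± 0.06. MIR17HG, the host of the miR-17 cluster, gave -0.06 ± 0.09. The snoRNA hosts SNHG1 and GAS5 gave 0.17 ± 0.08 and 0.13 ± 0.07. SNHG1 did not overlap between the groups (893, 905 and 902 counts against 1147, 1029 and 1681), as in 9.55% of all feature windows, and had an adjusted p of 0.957. LMNB1-DT, read from the shared start with LMNB1, gave 0.81 ± 0.29 (adjusted p = 0.942). LMNA replicates 2 and 3 were again the highest of the LMNA and GFP libraries. This window overlaps LMNB1, and the LMNB1 libraries held 8704 to 12079 CPM there, so its value cannot be assigned to the lncRNA.

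Windows with the largest differences in either direction are given as values only, since none was called. Of 81873 feature windows outside the lamin genes with a mean level at or above the median, 2847 (3.48%) had an unadjusted p under 0.05 and no overlap between groups, 1767 higher and 1080 lower. In the same 81873 windows 8.91% did not overlap and 5.04% had an unadjusted p under 0.05. The highest were lnc-PLA2G4A-7 on chromosome 1 (145, 121 and 182 counts against 262, 280 and 376, 0.71 ± 0.13, adjusted p = 0.105) and ENSG00000249345.8 on chromosome 12 (0.66 ± 0.14, adjusted p = 0.256). Next was GRM7-AS3, an antisense lncRNA near the glutamate receptor gene GRM7 on chromosome 3. It held 216, 282 and 348 counts in GFP and 471, 461 and 716 in LMNA (0.63 ± 0.12, adjusted p = 0.105). Absence of overlap was part of the rule that chose these windows. All 3 lie in neighbourhoods with 0 or 1 coding gene start. lnc-TM2D3-2 (0.62 ± 0.14), ENSG00000255998.2 (0.62 ± 0.16) and ENSG00000285683.2 (0.60 ± 0.16) followed. Of the 6, lnc-TM2D3-2 alone had more than 1 coding gene start within 500 kb. ENSG00000249345.8 and ENSG00000255998.2 lie on the same chromosome as the LINC02369 windows, at 127031387 and 126690266. DESeq2 called lnc-PLA2G4A-7, GRM7-AS3, ENSG00000249345.8 and lnc-TM2D3-2, with adjusted p-values of 0.0022, 0.0022, 0.0216 and 0.0262.

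The lowest was lnc-NRARP-3, inside EXD3 on chromosome 9, with 242, 264 and 364 counts in GFP and 179, 208 and 317 in LMNA (-0.63 ± 0.14, adjusted p = 0.257, and 0.0296 with DESeq2). A window of PVT1, the lncRNA next to MYC, followed at -0.52 ± 0.15 and HSALNG0083575 near ELF5, a transcription factor gene, at -0.47 ± 0.12. AP003119.1 (-0.47 ± 0.17), HSALNG0020298 inside MYO3B (-0.44 ± 0.14) and AC009137.1 inside TANGO6 (-0.42 ± 0.13) completed the list, with adjusted p-values of 0.446 to 0.895 for these last 5. Each of the 6 lies among 1 to 50 coding gene starts.

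The density of coding genes was tabulated for all windows, after these values were seen. Windows were divided into 7 groups by the number of RefSeq coding gene starts within 500 kb of their middle. The 9864 feature windows with none had a median log2 fold change of 0.06, and 6024 (61.1%) were higher. The median was 0.004 (51.1% higher) with 1 coding gene start, -0.01 (47.7%) with 2 to 3, -0.02 (43.7%) with 4 to 6, -0.01 (46.5%) with 7 to 12, 0.01 (53.1%) with 13 to 24 and 0.02 (57.8%) with 25 or more, so that both ends lay above the middle. In the gene-free group 1234 (12.5%) had an unadjusted p under 0.05, 1055 higher and 179 lower, against 5.19% of all windows. The share was 8.95% with 1 coding gene start, 5.31% with 2 to 3, 4.45% with 4 to 6, 4.33% with 7 to 12, 3.82% with 13 to 24 and 3.81% with 25 or more. With lncRNA windows left out, 10 of the 252 gene-free windows that remained (3.97%) had an unadjusted p under 0.05, against 4.58% of all, and their median was 0.05. None of the windows of the gene-free group was called by edgeR, and DESeq2 called 20. Of the 59 feature windows outside the lamin genes that DESeq2 called, 57 higher and 2 lower, 55 had 0 or 1 coding gene start nearby, as did 13.7% of all nuclear windows tested.

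In the gene-free windows the median level was -0.12, 0.02 and 0.12 in GFP replicates 1 to 3 and 0.06, 0.05 and 0.13 in LMNA. GFP replicate 1 was far below the others and GFP replicate 3 within the LMNA range, so the groups overlapped. The order was turned around in windows with 25 or more gene starts, where the levels were 0.06, -0.001 and -0.04 in GFP and 0.03, 0.06 and 0.01 in LMNA. GFP replicates 1 and 3 thus bracketed the LMNA libraries at both ends of gene density, with the exception of LMNA replicate 3 at the gene-free end and LMNA replicate 2 at the gene-rich end, which lay just above them. The median in gene-free windows was 0.01 without GFP replicate 1, with 9.98% at an unadjusted p under 0.05 against 8.13% of all windows. It was 0.11 without GFP replicate 3, with 18.8% against 6.87%, and 0.03 without LMNA replicate 3, with 8.87% against 5.03%.

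In the flanks the share at an unadjusted p under 0.05 was also highest in gene-free windows, by less in the shorter ones. It was 6.17% in gene-free 500 bp windows against 5.28% of all, and 7.41% against 5.64% for 5000 bp windows. Of 21785 50000 bp windows with no coding gene start, 3093 (14.2%) had an unadjusted p under 0.05, 2706 of them higher, against 6.14% of all 50000 bp windows. Of the 69422 windows with 4 to 6 gene starts, 4259 (6.13%) were at that level, 3631 lower and 628 higher. Of the 90949 with 7 to 12, 4807 (5.29%) were, 4086 lower and 721 higher. Neighbouring windows overlap, so these counts are not counts of independent sites. The part that differences between single libraries have in this pattern was not tested beyond the values without each.

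**Figure D5:**
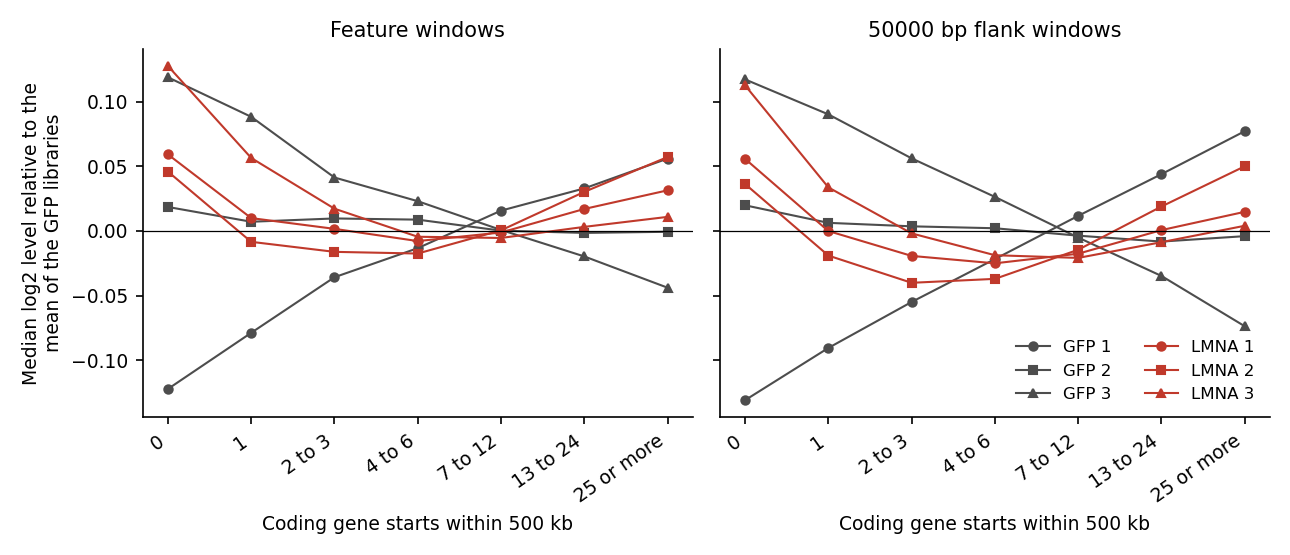
Median log2 level of feature windows (left) and 50000 bp flank windows (right) relative to the mean of the GFP libraries, against the number of coding gene starts within 500 kb, for each GFP (grey) and LMNA (red) library. GFP replicates 1 and 3 slope in opposite directions (-0.12 and 0.12 in gene-free feature windows), and the LMNA libraries lie between 0.05 and 0.13 there.

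By chromosome, medians of the feature windows ran from -0.02 on chromosome 21 to 0.04 on chromosome X over 23 chromosomes, 11 of them above 0. In 21 of the 23 the library levels of the groups overlapped.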

How the data were processed

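Counts per window were deposited by the authors as whole numbers for 12 accessibility libraries, and GRCh38 is named in the submitters' processing notes. The aligner, the counting tool, the treatment of duplicates and of reads that map to several places, and any shift of reads to the insertion site are not given in the sources used here. Copies of multigene families and overlapping windows may therefore share reads. Groups came from the sample titles. Each kind of window was fitted separately with all 12 libraries in edgeR 4.0.16 (R 4.3.3), with group means, filterByExpr, TMM scaling and robust quasi-likelihood dispersion. The biological coefficient of variation was 0.085 for feature windows and 0.0599 for 50000 bp windows. DESeq2 1.42.0 was an alternative, as were other scalings and filters, fewer libraries and leaving out each library. Names and gene positions came from RefSeq (GRCh38.p14), and positions of windows are counted from 1. The script was tested on simulated counts. Windows named were those over the lamin genes, every call or its group, a fixed list of Pol III genes and lncRNAs, and the 6 largest differences in each direction that met an unadjusted p under 0.05, no overlap and at least the median level. Lists and members were chosen with earlier results of these data known. No molecular identifiers are named, so counts are of reads and errors cover the spread between libraries only.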

Additional observations from a re-analysis of the deposited data

Results flagged for a closer look

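Results at 5 windows differed between lamin A and the B-type lamins, each set against the same GFP libraries, by a test of the LMNA libraries against the mean of the LMNB1 and LMNB2 libraries in edgeR. The 5 are among the windows called higher against GFP with the same LMNA libraries, so a positive difference was favoured by that choice. Among all 163786 feature windows the test called 198 (0.121%). The share that it called among flank windows was not tabulated. At the lnc-SEMA4A-1 window over LMNA the difference was 8.94 on the log2 scale. At the 500 bp window of lnc-SNAP25-4 on chromosome 20 it was 4.11, and all 3 LMNA libraries lay above all 6 of the others. At the 5000 bp window of NONHSAG031254.2 over the same site it was 1.75. At the 50000 bp window of ENSG00000227455.3 on chromosome 6 it was 0.36, and at that of LINC02369 on chromosome 12 it was 0.48. The call against GFP was lost at lnc-SEMA4A-1 without GFP replicate 1 or 2, at the lnc-SNAP25-4 window without GFP replicate 1, and at the chromosome 6 and 12 windows without any of several single libraries. The NONHSAG031254.2 window kept its call without each library in turn. No group here had the 4 libraries needed to look for a library far from the others of its group.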

How the results depend on the processing

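Counts of called windows moved with the processing. The 1 feature window called became 184 when only total counts were used for scaling (which moved the median of all windows to 0.09), 60 with DESeq2 (58 higher, 2 lower), 0 with only the LMNA and GFP libraries (6447 at an unadjusted p under 0.05) and 60 with the replicate block. It ranged from 0 to 222 when 1 library was left out: 0 without GFP replicate 1 or 2, 222 without GFP replicate 3, 2 without LMNB1 replicate 1 and 39 without LMNB1 replicate 3. Without lncRNA windows, which leaves out those called, 1 other window was called among feature windows and 1 among 500 bp windows. The feature window was that of the signal recognition particle RNA copy Metazoa_SRP_SRP_RNA_URS0000995474 on chromosome 8, at 137702264 to 138063492 (1266, 1618 and 1955 counts in GFP, 2508, 2191 and 3726 in LMNA, 0.45, adjusted p = 0.0169, against 0.105 with all windows). It is far wider than the 600 bp window of RN7SL1, so its counts are those of a broad stretch and not of a short RNA gene. The 500 bp window was that of U6_snRNA_URS00006C211A on chromosome 5 (0 counts in each GFP library, 7, 14 and 18 in LMNA and 5 to 17 in the others, adjusted p = 0.0468, against 0.231). Over the lamin genes the 1 call became 0 with only the LMNA and GFP libraries and 0 to 1 when a library was left out.

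The 1 call among 500 bp windows became 0 with DESeq2 and ranged from 0 to 1 (0 without GFP replicate 1). The 2 calls among 5000 bp windows became 1 at an adjusted p under 0.01, 1 with a fold change of at least 1 on the log2 scale, 9 with total counts, 7 with DESeq2's size factors, 1 with DESeq2, 11 with only the LMNA and GFP libraries and 0 without lncRNA windows, which leaves out the windows called. They ranged from 1 to 13: 5 without GFP replicate 3, 8, 1 and 4 without LMNA replicates 1, 2 and 3, 9 and 6 without LMNB1 replicates 1 and 2, and 5, 13 and 11 without LMNB2 replicates 1, 2 and 3.

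The 24 calls among 50000 bp windows became 8 at an adjusted p under 0.01 and 8 with a fold change of at least 1, in both cases those over LMNA. They became 134724 with total counts (261 higher, 134463 lower, the median of all windows moving to -0.16), 355 with DESeq2, 201 with only the LMNA and GFP libraries, 205 with the replicate block and 1 without lncRNA windows. They ranged from 8 to 564: 9, 8 and 564 without GFP replicates 1, 2 and 3, 13 without LMNA replicate 1, 144, 8 and 271 without LMNB1 replicates 1, 2 and 3, and 8 without LMNA replicate 2 or 3 or any LMNB2 replicate. The 7 lower windows relative to 50000 bp flanks became 1, higher, with 5000 bp flanks.

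Replicate numbers did not pair the libraries (correlations of deviations of -0.01, -0.0004 and 0.07 for numbers 1 to 3, and not every library correlating best with its own number), so the block shows only how a shared number moves the counts. The median fold change of Pol III genes stayed within -0.02 to 0.14. No single window named here changed sign past the threshold, but the calls as a set did: those of 50000 bp windows from all higher to nearly all lower with total counts, and those relative to flanks from lower to higher with 5000 bp flanks. The cause of these changes was not tested. Total counts of the 50000 bp windows include those over LMNA. These took 9.55%, 11.5% and 8.95% of the summed window counts in LMNA replicates 1, 2 and 3, and 0.022% to 0.031% in GFP, with overlapping windows counted each time. Low counts limit the 500 bp flanks, whose biological coefficient of variation was 0.214.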
